A study of Mus musculus with 14 samples.

Results

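The beta common chain cytokine receptors were followed through 14 RNA-seq libraries of mouse bone marrow cells. They comprise 5 genes of the 55367 gene symbols counted, taken by name with earlier results of these data known. Csf2rb and Csf2rb2 encode the beta signalling subunits, and Csf2ra, Il3ra and Il5ra encode the ligand-specific alpha subunits. All libraries came from wild-type lineage-negative primary bone marrow cells grown in medium with SCF, IL6 and IL3, the last of these a ligand of the family. In the first experiment the cells were transduced with a lentivirus carrying luciferase (n = 3) or the D868N mutant of SETBP1 (n = 3), a nuclear protein mutated in myeloid leukaemias. In the second, all cells were labelled as transduced with SETBP1-D868N and received DMSO (n = 4) or the MYST acetyltransferase inhibitor PF-9363 at 2.5 µM (n = 4) for 4 days. The second therefore has no luciferase arm, and its DMSO group is not a wild-type control. The promoter that drives the insert, the mouse strain and age, and any selection of transduced cells are not given in the sources used here. The labels do not say whether replicates were separate animals or cultures, so p-values measure the spread between these libraries, which may be technical.

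Each receptor of this family joins an alpha subunit, which recognises 1 cytokine, to a beta subunit that carries JAK2 and drives STAT5, MAP kinase and PI3 kinase signalling. CSF2RA pairs for GM-CSF, IL3RA for IL3 and IL5RA for IL5. The mouse has a further beta gene, Csf2rb2, whose product serves the IL3 receptor only, whereas the Csf2rb product serves all 3 cytokines. In bone marrow, IL3 acts on early myeloid, basophil and mast cells, GM-CSF on granulocytes and macrophages, and IL5 on eosinophils.

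Total counts ran from 60147266 to 68730322 per library in the first experiment and from 7083731 to 10359093 in the second. RNA input (500 ng and 100 ng) and library preparation also differed, so no test was made across experiments. Setbp1, as a check of the label, had 5, 6 and 6 counts with luciferase and 23, 20 and 24 with SETBP1-D868N, or 0.089 ± 0.014 and 0.34 ± 0.030 CPM. In the second experiment, where every library is labelled as carrying the insert, it had 2, 1, 0 and 0 counts with DMSO (0.074 ± 0.095 CPM) and 0 in all 4 PF-9363 libraries, so its level does not bear out that label. Whether reads of the insert are counted under this mouse symbol is not given in the sources used here. The first luciferase library stood apart from the other luciferase libraries (chi-square per degree of freedom of 24.6 and 25.2, against 2.21 between those). Without it, the log2 fold changes with SETBP1-D868N were −0.35 for Csf2rb, −0.58 for Csf2rb2, −0.19 for Csf2ra and 0.19 for Il3ra, with every call kept, and −0.15 for Il5ra, which did not pass. Progenitor markers (Kit, Cd34, Myb and Flt3) summed to 447 to 466 CPM in the luciferase libraries, beside 17829 to 18701 CPM for the neutrophil and promyelocyte list. These lists hold 4 and 8 genes of unlike abundance, so the sums do not give shares of cells. CPM is used throughout for TMM-scaled CPM, the count relative to the scaled library total.

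Csf2rb (chr15:78325752-78353847, plus strand) and Csf2rb2 (chr15:78282507-78305721, minus strand) lie next to each other on GRCm38 in GENCODE M21, pointing apart with their starts 20.0 kb from each other. Csf2ra is at chr19:61223957-61228429 (minus), Il3ra at chr14:14346275-14356011 (plus) and Il5ra at chr6:106710357-106749037 (minus). The beta genes are near-identical copies. Of 2631 coding bases aligned without gaps, 126 differed, giving 95.2% identity, and the longest shared run was 242 bases. The first 120 coding bases of each are shown because they make visible how few positions can assign a read to 1 gene. Capitals mark the 4 bases that differ, and the spliced stretches span chr15:78335207-78336379 on the plus strand and chr15:78297071-78298229 on the minus strand (GRCm38).
Csf2rb: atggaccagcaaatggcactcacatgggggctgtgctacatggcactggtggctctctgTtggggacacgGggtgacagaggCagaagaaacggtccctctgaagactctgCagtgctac
Csf2rb2: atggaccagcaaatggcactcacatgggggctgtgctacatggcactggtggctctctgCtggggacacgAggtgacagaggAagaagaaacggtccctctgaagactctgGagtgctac

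Of the 50-base stretches in the Csf2rb transcript, 18.9% also occur in Csf2rb2, and 3.58% of the 150-base stretches do. Read length and the treatment of reads that match both genes are not given in the sources used here. The split between these genes is therefore uncertain, and their summed counts are given beside each.

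Per kilobase of annotated exon, the beta genes were the most abundant members in 3 of the 4 groups. In the luciferase libraries Csf2rb stood at 212 ± 1.91 CPM per kb and Csf2rb2 at 206 ± 0.437 (SD, n = 3), followed by Csf2ra at 53.5 ± 2.09, Il3ra at 11.6 ± 0.640 and Il5ra at 0.412 ± 0.0512. The order was the same with SETBP1-D868N, at 167, 137, 47.9, 13.6 and 0.357 CPM per kb. In the DMSO libraries Csf2ra (52.1 ± 2.91, n = 4) lay between Csf2rb (67.6 ± 3.97) and Csf2rb2 (40.4 ± 2.73), above Il3ra (7.56 ± 0.745) and Il5ra (0.161 ± 0.110). With PF-9363 Csf2rb2 was highest at 304 ± 19.5 CPM per kb, ahead of Csf2rb (229 ± 15.2), Csf2ra (104 ± 6.29), Il3ra (9.71 ± 1.19) and Il5ra (0.110 ± 0.131). In no group did the libraries of neighbours in this order overlap. The place of Csf2rb depends on the gene model: divided by the longest transcript, it reached 340.1 CPM per kb with PF-9363 and stood first in every group, while the order of the others did not change.

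**Figure D1:**
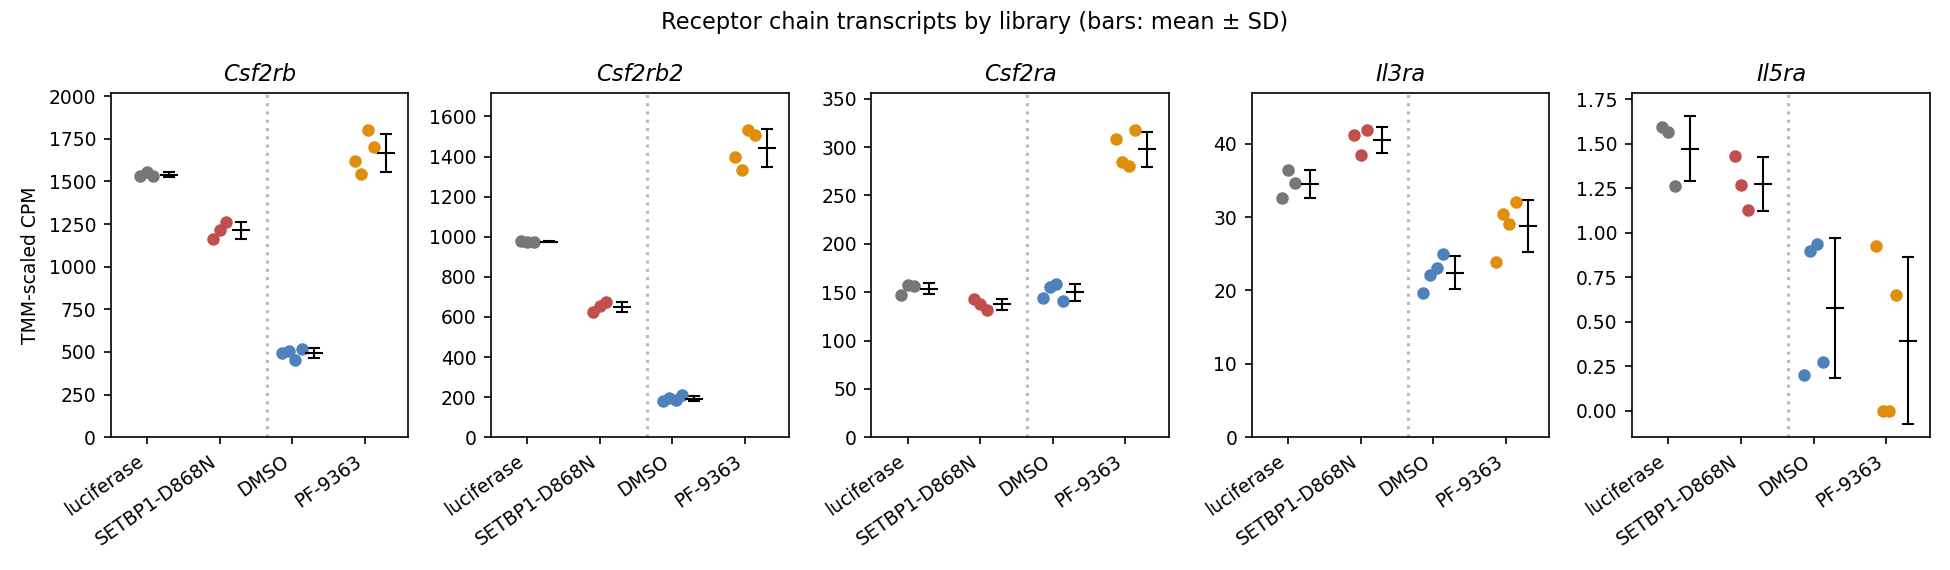
Level of each member in TMM-scaled CPM (vertical axis, linear, 1 panel per gene) in the luciferase, SETBP1-D868N, DMSO and PF-9363 libraries. Points are libraries, and lines with bars are the mean and SD (n = 3, 3, 4 and 4); a dotted line separates the experiments. Csf2rb and Csf2rb2 were lower with SETBP1-D868N and higher with PF-9363 in every library than in their own controls, and Il5ra did not exceed 1.59 CPM in any library.

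With SETBP1-D868N, the RNA of both beta subunits and of the GM-CSF alpha subunit was lower and that of the IL3 alpha subunit was higher. Csf2rb2 fell most, from a mean of 975 to 650.2 CPM, and the changes of Csf2ra and Il3ra were under 1.2-fold. All 5 members passed the filter on low counts. Of these, 3 fell and 1 rose at an edgeR adjusted p under 0.05, where 22.7% of the 15794 genes tested fell, 24.5% rose and 47.2% changed either way. In bulk RNA, fewer cells that express a gene and less of its RNA per cell cannot be told apart.

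Csf2rb, the shared beta subunit, stood at 1531, 1556 and 1533 CPM in the luciferase libraries and at 1161, 1216 and 1261 CPM with SETBP1-D868N. Every mutant library lay below every control. The means were 1540 ± 13.9 and 1213 ± 49.8 CPM (SD, n = 3 each), and on the log2 scale Csf2rb fell by 0.34 (SE 0.030, edgeR adjusted p = 2.07e-06). Csf2rb2, the IL3-specific beta subunit, stood at 977, 974 and 973 CPM with luciferase and at 623, 653 and 674 CPM with SETBP1-D868N. The groups were again apart, by far more than the spread within either, and the log2 fold change was −0.58 (SE 0.029, adjusted p = 3.72e-08). Summed, so that reads given to the wrong copy do not count, the pair averaged 2515 and then 1863 CPM and fell by 0.43 on the log2 scale (SE 0.029, adjusted p = 3.32e-07).

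Csf2ra, the GM-CSF-binding subunit, measured 147, 158 and 156 CPM with luciferase and 143, 138 and 131 CPM with SETBP1-D868N. The lowest control lay just above the highest mutant library, and the log2 fold change was −0.16 (SE 0.037, adjusted p = 0.00400). Il3ra, the IL3-binding subunit, measured 32.6, 36.4 and 34.7 CPM with luciferase and 41.1, 38.5 and 41.8 CPM with SETBP1-D868N. It was the member that moved the other way, with every mutant library above every control and a log2 fold change of 0.23 (SE 0.048, adjusted p = 0.00182). Il5ra, the IL5-binding subunit, had 107, 102 and 75 counts with luciferase and 94, 83 and 75 with SETBP1-D868N, under 2 CPM in each. Its groups overlapped and its log2 fold change of −0.21 (SE 0.16) did not pass (adjusted p = 0.299). The libraries of the groups did not overlap for 4 of the 5 members, and for 56.7% of all genes tested.

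PF-9363 was followed by much higher RNA of both beta subunits and of Csf2ra. Csf2rb2 rose 7.53-fold, Csf2rb 3.38-fold, Csf2ra 1.99-fold and Il3ra 1.28-fold, while Il5ra was too sparse to test. Of the 4 members that passed the filter, 4 rose and 0 fell, where 36.6% of the 13456 genes tested rose, 39.4% fell and 76.0% changed either way. The median absolute log2 fold change over all genes was 0.65, so a call alone was common in this comparison and the sizes carry more information. Scaling by library size alone moved the median log2 fold change of all genes by −0.23. It turned no member's direction.

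Csf2rb stood at 492, 506, 452 and 519 CPM with DMSO and at 1622, 1542, 1800 and 1703 CPM with PF-9363. The lowest treated library was well above the highest control. The means were 492 ± 28.9 and 1666 ± 111 CPM (SD, n = 4 each), and on the log2 scale Csf2rb rose by 1.76 (SE 0.065, edgeR adjusted p = 8.53e-20). Csf2rb2 stood at 179, 194, 185 and 209 CPM with DMSO and at 1397, 1335, 1531 and 1508 CPM with PF-9363. No treated library came near a control, and the log2 fold change was 2.91 (SE 0.068, adjusted p = 5.13e-24). Of all genes tested, 2.13% rose by more. The summed pair averaged 684 and then 3109 CPM and rose by 2.18 on the log2 scale (SE 0.066, adjusted p = 9.85e-22), a value that does not use the split of reads between the copies.

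Csf2ra measured 144, 155, 158 and 141 CPM with DMSO and 308, 285, 280.1 and 317 CPM with PF-9363. The groups were apart, with a log2 fold change of 0.99 (SE 0.063, adjusted p = 2.26e-14). Il3ra measured 19.6, 22.1, 23.1 and 24.9 CPM with DMSO and 23.8, 30.4, 29.0 and 32.0 CPM with PF-9363. The first treated library lay inside the control range. The log2 fold change was 0.36 (SE 0.11, adjusted p = 0.00463), and under scaling by library size alone it was 0.13 with an adjusted p of 0.291, so the call for Il3ra depends on the scaling. Among the 4 tested members the groups did not overlap for 3, and this held for 70.3% of all genes tested.

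Il5ra had 2, 9, 10 and 3 counts with DMSO and 9, 0, 0 and 6 with PF-9363. The 2 treated libraries with 0 counts allow levels of up to 0.386 and 0.466 CPM, by 3 counts over the scaled library total. No difference was detectable at this depth. With SETBP1-D868N and then with PF-9363, 3 members (Csf2rb, Csf2rb2 and Csf2ra) fell and rose, as did 16.8% of the 12376 genes tested in both experiments.

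**Figure D2:**
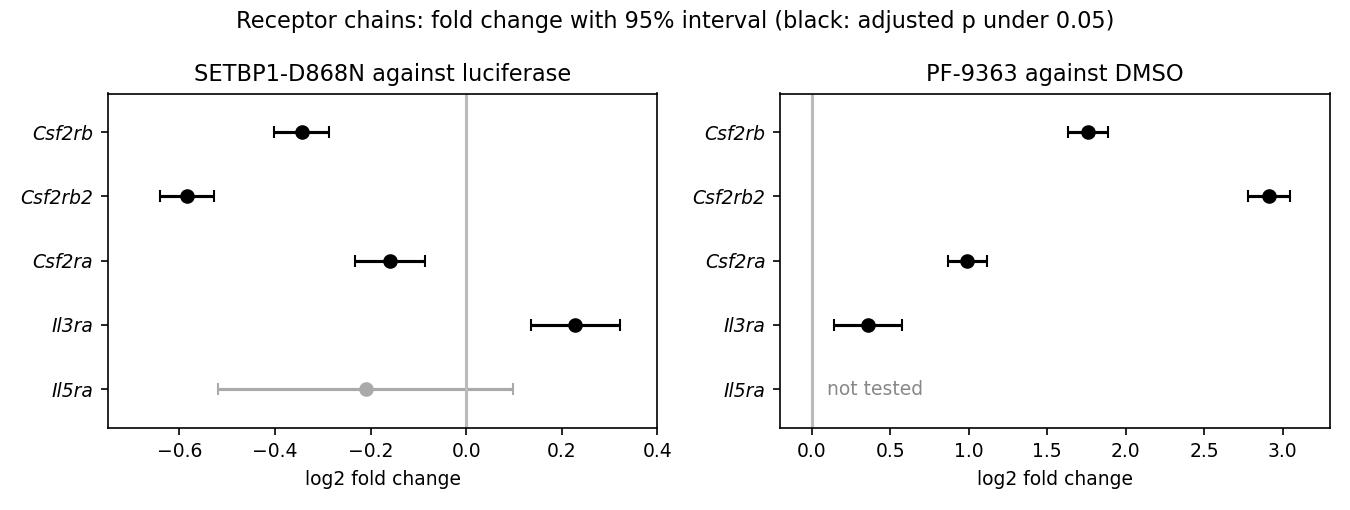
Log2 fold change of each member (horizontal axis, with a range of its own in each panel) for SETBP1-D868N against luciferase and PF-9363 against DMSO, with 95% intervals from the standard error. Csf2rb2 has the largest change of the members in both panels, −0.58 and 2.91, and Il3ra is the 1 member above 0 in the left panel.

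Ratios of Csf2rb2, Csf2ra and Il3ra to Csf2rb differed with PF-9363, while with SETBP1-D868N no ratio could pass. All use Csf2rb, so they rest on the uncertain split of reads between the beta copies. Ratios were taken within each library and so do not depend on scaling. The ratios printed are of plain counts, while the log2 differences and tests used counts per kb with 0.5 count added. For each comparison 4 ratios to Csf2rb were tested with an exact two-sided permutation test and adjusted together. Csf2rb2 counts per Csf2rb count were 0.638, 0.626 and 0.635 with luciferase and 0.536, 0.537 and 0.535 with SETBP1-D868N, a log2 difference of −0.24. With 3 libraries against 3 the smallest possible p is 0.1, which this ratio gave (adjusted p = 0.133, exact test), so the design cannot pass 0.05. The ratio of Il3ra to Csf2rb went the other way, from 0.0213, 0.0234 and 0.0226 to 0.0354, 0.0316 and 0.0332, a log2 difference of 0.57 with the same exact p of 0.1. Csf2ra per Csf2rb moved by 0.19 and Il5ra per Csf2rb by 0.14 on the log2 scale, with exact p of 0.1 and 0.4.

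With PF-9363 the balance of the copies moved toward Csf2rb2. Its counts per Csf2rb count were 0.363, 0.383, 0.410 and 0.402 with DMSO and 0.862, 0.866, 0.851 and 0.886 with PF-9363, a log2 difference of 1.15 (exact p = 0.0286, the smallest possible with 4 against 4, adjusted p = 0.0381). The alpha subunits Csf2ra and Il3ra rose less than Csf2rb. Csf2ra per Csf2rb went from 0.293, 0.307, 0.350 and 0.272 to 0.190, 0.185, 0.156 and 0.186, a log2 difference of −0.77, and Il3ra per Csf2rb from 0.0398, 0.0437, 0.0510 and 0.0480 to 0.0147, 0.0197, 0.0161 and 0.0188, a log2 difference of −1.40 (exact adjusted p = 0.0381 for both). Control and treated libraries did not overlap in any of these 3 ratios. For Il5ra the log2 difference of −2.86 rested on 0 to 10 counts per library and did not pass (exact adjusted p = 0.0571).

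**Figure D3:**
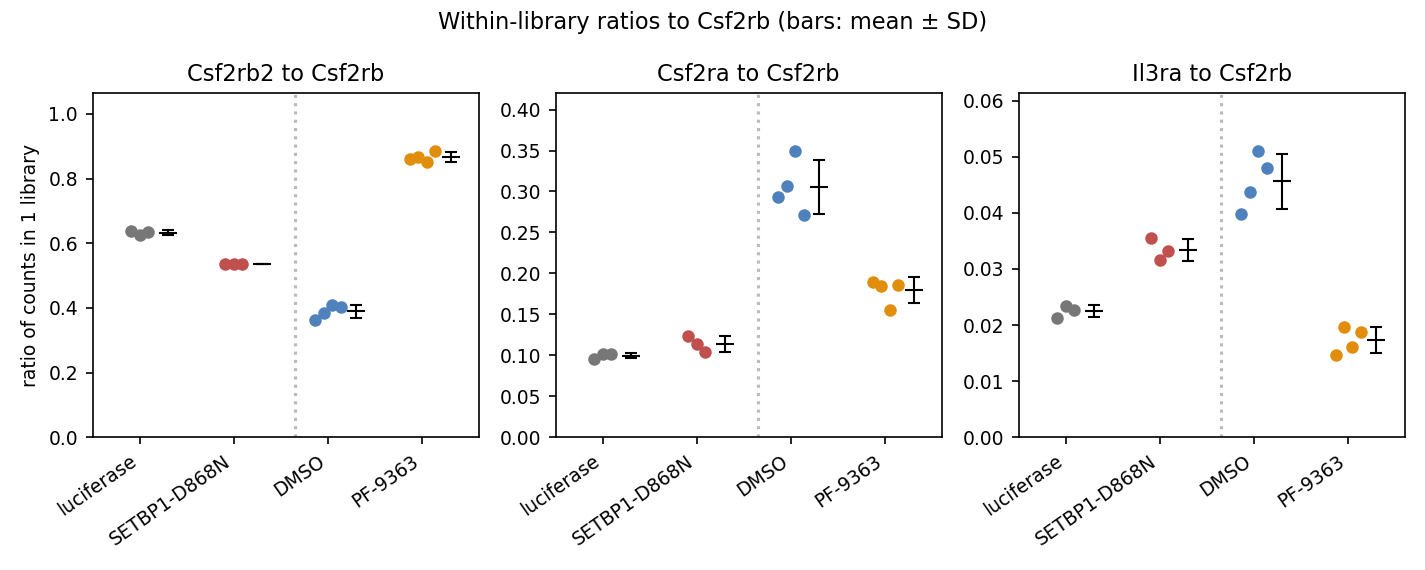
Ratio of the counts of Csf2rb2, Csf2ra and Il3ra to those of Csf2rb within each library (vertical axis, linear, from 0) by group. Points are libraries, and lines with bars are the mean and SD. Csf2rb2 per Csf2rb was lower with SETBP1-D868N and higher with PF-9363 (log2 differences of −0.24 and 1.15), and Il3ra per Csf2rb moved the opposite way each time (0.57 and −1.40).

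The stretches of 250 bases before the RefSeq starts of Csf2rb2, Csf2ra and Il3ra are shown because these members changed in both comparisons. For Csf2ra and Il3ra these starts differ from those in GENCODE M21. The GENCODE model of Il3ra starts at 14346275, so most of the Il3ra window lies inside that model. The model of Csf2ra starts at 61228429, so the last bases of the Csf2ra window lie inside it. The stretches are taken from RefSeq (GRCm38.p6), where 4 of the 5 members matched and Csf2rb did not. Capitals mark matches, on either strand, to GAGGAA, the core of the site of the myeloid factor PU.1, and to TTCNNNGAA, the STAT5 motif. The motif AGATAA, bound by GATA factors, was also searched on both strands. So was TGANTCA, which is bound by AP-1.
Csf2rb2 (chr15:78305722-78305971, minus strand): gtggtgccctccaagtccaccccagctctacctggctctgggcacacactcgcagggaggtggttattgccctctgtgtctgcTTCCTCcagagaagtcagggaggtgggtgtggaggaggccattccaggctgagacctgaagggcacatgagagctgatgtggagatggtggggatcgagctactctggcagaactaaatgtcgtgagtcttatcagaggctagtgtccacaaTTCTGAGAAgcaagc
Csf2ra (chr19:61228419-61228668, minus strand): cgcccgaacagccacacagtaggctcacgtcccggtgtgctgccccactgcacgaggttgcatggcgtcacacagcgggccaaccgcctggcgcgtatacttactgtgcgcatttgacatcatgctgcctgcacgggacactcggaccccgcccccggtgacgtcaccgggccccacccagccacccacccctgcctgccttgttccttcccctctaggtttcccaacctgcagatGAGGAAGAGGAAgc
Il3ra (chr14:14346245-14346494, plus strand): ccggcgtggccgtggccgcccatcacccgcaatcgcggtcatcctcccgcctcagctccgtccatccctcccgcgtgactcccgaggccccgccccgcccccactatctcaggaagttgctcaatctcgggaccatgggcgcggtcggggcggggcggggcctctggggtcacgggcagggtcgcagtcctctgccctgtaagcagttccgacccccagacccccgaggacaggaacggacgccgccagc

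Csf2rb2 held 1 PU.1 core 167 bases and 1 STAT5 match 15 bases before its start. Csf2ra held 2 adjoining PU.1 cores 14 and 8 bases before its RefSeq start, the nearer of them inside the GENCODE model. Il5ra held 1 GATA match at 74 bases and 1 AP-1 match at 99 bases, and none of the 4 motifs was found in the Il3ra window. Of 32851 promoters of the same length, 23.3% held the PU.1 core, 9.99% the GATA, 7.02% the STAT5 and 6.75% the AP-1 motif, so such matches are common and describe letters only.

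The ligands were near the limit of detection. Il3 had 0, 1 and 2 counts with luciferase, 3, 4 and 4 with SETBP1-D868N, 0 in all 4 DMSO libraries and 4, 1, 10 and 8 with PF-9363. Csf2, which encodes GM-CSF, had 14, 11 and 13 counts with luciferase, 12, 15 and 13 with SETBP1-D868N, 0 in all 4 DMSO libraries and 12, 8, 3 and 9 with PF-9363. Every PF-9363 library thus held counts of both genes and no DMSO library did, although neither passed the filter. In a fit without that filter the edgeR adjusted p was 4.13e-05 for Il3 and 1.14e-06 for Csf2. That fit may give p-values that are too small. For Csf2rb it took the edgeR adjusted p from 8.53e-20 to 7.63e-176, with log2 fold changes of 1.76 and 1.74. In the first experiment Csf2 was the 1 ligand tested and did not pass (log2 fold change 0.030, adjusted p = 0.948). Without the filter, Il3 and Il5 did not pass there either (edgeR adjusted p = 0.296 and 0.631). Il5 had 0 to 2 counts in every library.

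Genes that act downstream of the receptors mostly moved in the direction of the beta subunits. The list of signalling proteins holds both transducers and inhibitors of the signal, so its counts give no direction of signalling. Of 20 signalling proteins, 16 fell with SETBP1-D868N, 0 rose and 4 did not pass (median log2 fold change −0.19, against 0.0043 for all genes, of which 22.7% fell). Jak2, the kinase bound to the beta subunit, fell by 0.55 on the log2 scale (adjusted p = 1.24e-07). Stat5a and Stat5b fell by 0.11 (adjusted p = 0.0233) and 0.14 (adjusted p = 0.00182). With PF-9363, 18 rose, 1 fell and 1 (Shc1) did not pass, where 36.6% of all genes tested rose and 76.0% changed either way. The list median was 0.62, against −0.038 for all genes. With library size alone that median was 0.39. Jak2 rose by 1.52 (adjusted p = 5.06e-18), Stat5a by 0.45 (adjusted p = 2.87e-05) and Stat5b by 0.39 (adjusted p = 8.31e-06), and the phosphatase gene Ptpn11 fell by 0.19 (adjusted p = 0.00916).

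Of 8 genes known to respond to STAT5, 6 fell with SETBP1-D868N, 0 rose and 2 did not pass (median −0.20, against 0.0043 for all genes, of which 22.7% fell). The feedback inhibitor genes Socs3 and Socs2 fell by 0.63 and 0.51 on the log2 scale (adjusted p = 1.28e-06 and 1.85e-06). With PF-9363, 7 rose, 0 fell and Pim1 did not pass (median 0.78, against −0.038 for all genes, of which 36.6% rose), led by Socs2 at 1.71 (adjusted p = 4.31e-13) and Socs1 at 1.60 (adjusted p = 8.09e-15).

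Other cytokine receptors mostly moved in the same directions as the beta subunits. Of 12 such genes, 10 fell with SETBP1-D868N, Epor rose and 1 did not pass (median −0.48, against 0.0043 for all genes, of which 22.7% fell). Il13ra1 fell by 0.85 (adjusted p = 2.88e-07), and among the receptors of the other cytokines in the medium Kit fell by 0.66 (adjusted p = 1.87e-08), Il6st by 0.54 (adjusted p = 6.58e-04) and Il6ra by 0.48 (adjusted p = 2.50e-07). With PF-9363, 9 of the 10 tested rose and Flt3 fell (median 1.69, against −0.038 for all genes, of which 36.6% rose). Il1rl1, the IL33 receptor, and Csf1r each rose by 2.77 (adjusted p = 1.53e-15 and 1.48e-23), Il6ra by 1.99 (adjusted p = 7.19e-20), Il6st by 1.83 (adjusted p = 4.48e-16) and Kit by 1.45 (adjusted p = 3.32e-16).

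**Figure D4:**
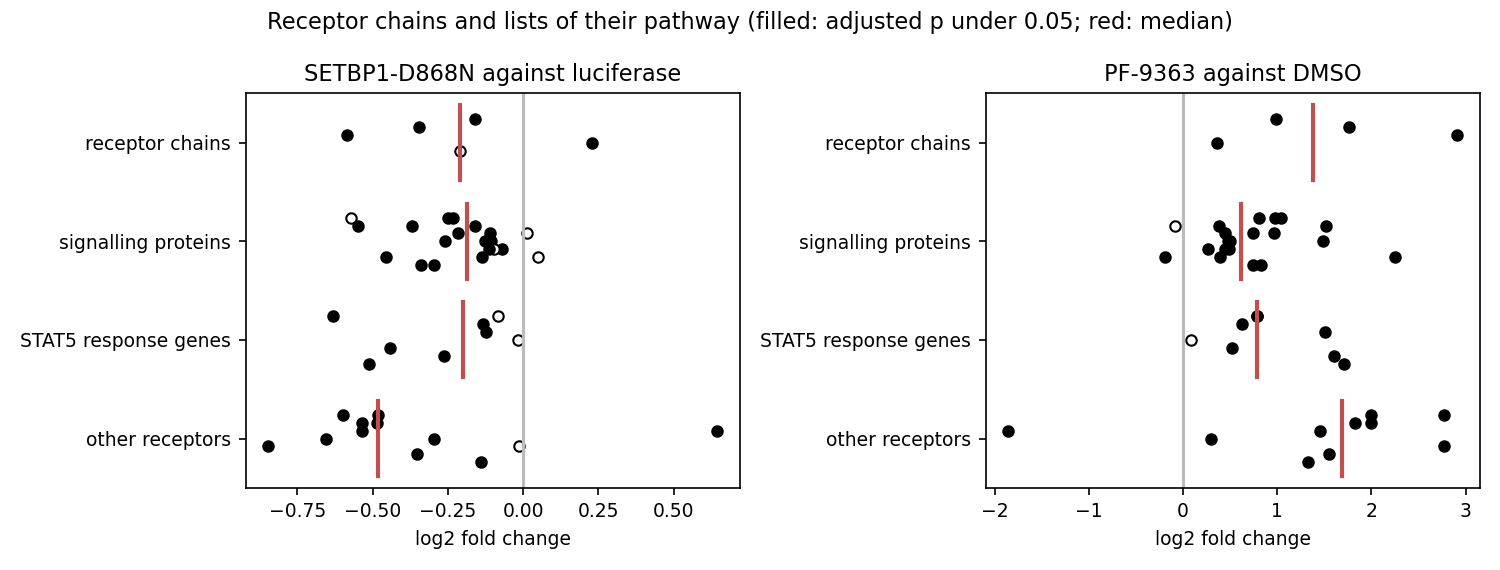
Log2 fold change (horizontal axis) of the members, signalling proteins, STAT5 response genes and other receptors in both comparisons. Each point is a gene, filled where its adjusted p was under 0.05, and each red line is the median over the genes tested. Most genes of each list lie below 0 with SETBP1-D868N and above 0 with PF-9363, as with Csf2rb, Csf2rb2 and Csf2ra.

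Markers of several cell types moved with these genes. Of all genes tested, 24.5% rose and 22.7% fell with SETBP1-D868N, and 36.6% rose and 39.4% fell with PF-9363. All 8 macrophage markers fell with SETBP1-D868N, led by C1qa and Mrc1, with sums of 837 to 876 CPM with luciferase and 514 to 546 CPM with the mutant. All 8 rose with PF-9363, led by Fcgr1 and Mertk, from 411 to 507 CPM to 3053 to 3672 CPM. The basophil and mast cell list split with SETBP1-D868N, 5 up (Prss34 and Ms4a2 leading) and 3 down (Tpsb2 and Fcer1a leading), with sums of 5366 to 5546 and 6027 to 6123 CPM. With PF-9363, 7 of its 8 genes rose, led by Fcer1a and Cpa3, and Mcpt8 did not pass (log2 fold change −0.14, edgeR adjusted p = 0.0980). The list sum went from 1123 to 1422 CPM to 4267 to 5137 CPM, and Cpa3 alone from a mean of 419 to 2674 CPM. These cell types carry beta chain receptors, and the part of their RNA in the members' changes was not tested.

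For Il5ra the eosinophil list is the matching one. With SETBP1-D868N, 4 of its 8 genes fell and 1 rose, with sums of 796 to 853 and 621 to 757 CPM. With PF-9363, 7 fell and 1 (Ccr3) rose, from 689 to 892 CPM to 266 to 377 CPM, and Ear1 and Ear2 led the falls in both comparisons. With luciferase its genes ranged from a mean of 0.94 CPM (Ccr3) to 321 CPM (Epx), beside 1.47 CPM for Il5ra; these 2 genes are named after their values were seen.

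In the neutrophil and promyelocyte list 4 genes rose (Ctsg and Mpo leading) and 4 fell (Camp and S100a8 leading) with SETBP1-D868N, and the sum went from 17829 to 18701 CPM down to 13323 to 14942 CPM. With PF-9363, 5 of its 8 genes fell, led by Elane and Mpo, and Ltf rose, from 12374 to 14595 CPM down to 9109 to 9877 CPM. Progenitor markers rose for Myb and Cd34 and fell for Kit and Flt3 with SETBP1-D868N, at 447 to 466 and 537 to 575 CPM. With PF-9363, Kit rose and 2 fell, at 391 to 419 and 261 to 274 CPM. Of the dendritic cell markers tested, 3 of 5 fell with SETBP1-D868N, Itgax among them, and the list summed to 79.5 to 93.3 and 53.2 to 65.2 CPM. With PF-9363, Itgax was the 1 tested and rose, and the list summed to 14.2 to 19.0 and 113 to 146 CPM. In the erythroid and megakaryocyte list, 2 of 6 rose (Klf1 and Itga2b) and Pf4 fell with SETBP1-D868N (266 to 282 and 283 to 308 CPM), and 2 of 3 rose with PF-9363 (39.2 to 47.2 and 209 to 231 CPM).

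Lymphoid markers were close to background. B cell markers summed to at most 1.70 CPM in the first experiment, where 1 of 2 tested fell. They summed to 0.594 to 1.495 CPM with DMSO and 6.68 to 7.98 CPM with PF-9363, where Cd22 rose and Ms4a1 and Ebf1 were at 0. T and NK markers summed to at most 1.24 CPM in any library; 1 of 2 tested fell with SETBP1-D868N, and in the second experiment none was tested and Cd3e, Cd3g, Cd8a and Klrb1c were at 0.

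Across the 14 libraries, the genes whose pattern came closest to each member were named by the root mean square difference of log2 CPM, centred within each experiment, among 9326 genes. They were Pdcd1lg2 (0.050), Psap (0.0767) and Rnf128 (0.0848) for Csf2rb2, and Glb1 (0.0592), Wsb2 (0.0597) and Ncoa3 (0.0619) for Csf2rb. For Csf2ra they were Tank (0.0376), Rnf111 (0.0496) and Anxa7 (0.0520), and for Il3ra they were Gfm2 (0.0868), Ptpmt1 (0.0924) and Rpp21 (0.0930). The nearest to Il5ra, Pdss2 at 0.513, was distant. Pdcd1lg2, which encodes the PD-1 ligand PD-L2, had log2 fold changes of −0.56 and 2.93, where Csf2rb2 had −0.58 and 2.91. Such nearness follows from how the gene was picked.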

How the data were processed

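The deposited values are unnormalised counts per the labels, in 1 table for each experiment with 55367 symbols. STAR, DESeq2 and the builds GRCm38 and mm10 are named in the submitters' processing notes. The counting program, annotation and strand handling are not given in the sources used here. Samples were grouped by their titles.

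Everything else was computed here in R 4.3.3. Genes were filtered with filterByExpr (minimum count 10, minimum total 15), scaled by TMM and tested within each experiment with edgeR 4.0.16 (robust quasi-likelihood test, with only the group as a factor). Benjamini-Hochberg adjustment ran over all genes tested, and the threshold for a call was 0.05. The script was tested on simulated data. Levels per kilobase used GENCODE M21 exon unions, coding sequences were aligned with mafft 7.526, and promoters came from RefSeq. Limits at 0 counts, on the TMM scale, cover counting error only. Alternatives were DESeq2 1.42.0, limma 3.58.1 (voom), other scalings, filters and lengths, a replicate block and each library left out.

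The members and lists were chosen with earlier results of these data known. All 5 members are named. From the lists, the ligands, Jak2, Stat5a, Stat5b, the SCF and IL6 receptors and the 2 called genes per list and direction with the largest change (among those that average 5 CPM or more in 1 group) are named, and the 3 genes most like each member. Some genes that this rule names are not reported here. Kit, Flt3 and Csf1r are each in a receptor and a marker list.

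No 2 libraries of a group agreed within sampling noise. Libraries with the same number did not deviate together.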

Additional observations from a re-analysis of the deposited data

How the results depend on the processing

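With SETBP1-D868N, 1 member rose and 3 fell in each of 14 alternatives; with PF-9363, 4 rose and 0 fell in 15 of 16. The exception was Il3ra under library size alone (log2 fold change 0.13, adjusted p = 0.291). Leaving out 1 library at a time gave −0.38 to −0.32 and 1.71 to 1.81 for Csf2rb, −0.61 to −0.56 and 2.87 to 2.96 for Csf2rb2, −0.19 to −0.13 and 0.96 to 1.03 for Csf2ra, and 0.19 to 0.27 and 0.29 to 0.45 for Il3ra. For Il5ra with SETBP1-D868N it gave −0.31 to −0.13, and 0.023 to 0.25 for its log2 ratio to Csf2rb, neither of which passed. Over these, the log2 ratio of Il5ra to Csf2rb with PF-9363 ranged from −3.54 to −2.26, and it passed without PF-9363 replicate 1 (exact permutation test, adjusted p = 0.0286). Library size alone moved the list medians to −0.14, −0.15 and −0.43 with SETBP1-D868N and to 0.39, 0.55 and 1.46 with PF-9363, for signalling proteins, STAT5 response genes and other receptors, with no sign changed. The median of the other receptors was −0.47 without SETBP1-D868N replicate 1 and, with PF-9363, 1.48 without the filter on low counts. Library size alone turned the split of all calls from 3869 higher and 3579 lower to 4906 and 2996 with SETBP1-D868N, and from 4921 and 5307 to 3774 and 6653 with PF-9363.

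Replicate numbers did not pair the libraries (correlations of −0.097 to −0.037 and −0.040 to 0.0075), and no control library correlated best with its own number. The replicate block gave 3416 and 3224 calls higher and lower with SETBP1-D868N and 4885 and 5239 with PF-9363, with no member's call changed. With the replicate block, the ratios to Csf2rb with PF-9363 kept their log2 differences of 1.15, −0.77 and −1.40 with an adjusted p of 0.167, which 4 pairs cannot bring below 0.05 in an exact sign-flip permutation test.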

Other observations

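Of 4 neighbours of the beta gene pair on chromosome 15, Ncf4 and Tst were tested. Ncf4, which encodes a subunit of the phagocyte NADPH oxidase and lies 19.9 kb beyond Csf2rb2, had log2 fold changes of −0.33 with SETBP1-D868N (edgeR adjusted p = 3.99e-05) and 0.25 with PF-9363 (adjusted p = 4.03e-04). Tst, a mitochondrial sulphur transferase gene 45.7 kb beyond Csf2rb, had 0.041, which did not pass, and −0.84 (adjusted p = 6.62e-08). Tex33 and Pvalb, the other neighbours examined, did not pass the filter. The differences between these genes and the pair were not tested.

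Gm48860 is an antisense gene whose span shares 990 bases with that of Il3ra. It was counted 0 to 2 times in each luciferase or SETBP1-D868N library. In each of the shallower DMSO and PF-9363 libraries it was counted 39 to 67 times. Without strand information its reads and those of Il3ra cannot be told apart. With PF-9363 its log2 fold change was 0.33 (adjusted p = 0.149). With both genes summed, an alternative chosen after seeing the data, the log2 fold change was 0.23 with SETBP1-D868N (adjusted p = 0.00180) and 0.35 with PF-9363 (adjusted p = 0.00360).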
